A study of Mus musculus with 4 samples.

Results

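Polycomb proteins, DNA methyltransferases and other chromatin regulators were examined in mouse blood stem and progenitor cells, as a set of 40 genes named by symbol. The set holds 15 genes of Polycomb repressive complex 1 (PRC1), 5 of PRC2, the 2 additional sex combs-like genes Asxl1 and Asxl2, 3 DNA methyltransferase genes, 3 Tet dioxygenase genes, 4 genes of histone methylation, 3 histone demethylase genes and 5 genes of deacetylase and remodelling complexes. All 40 were measured, of 18194 genes in all. Each was read at 1 probe set, the brightest on average of those annotated to no other gene.

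The series holds 4 Affymetrix arrays. Of these, 2 are labelled Alox15-/-, for a deletion of the arachidonate 15-lipoxygenase gene, and 2 are labelled WT. The labels give the strain of both groups as C57BL/6 (B6) and the age as 8 weeks, and name no further allele, treatment, promoter or Cre. The cells, called HSCs in the labels, were bone marrow cells sorted as lineage-negative, c-Kit-positive and Sca-1-positive, and that gate takes in multipotent progenitors besides stem cells. Titles call the replicates biological and name neither animals nor pools. The p-values therefore cover the spread among these arrays alone, part of which may be technical. In bulk samples such as these, fewer cells of a type and less RNA per cell cannot be told apart.

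The targeted gene goes against its label. Alox15 read 10.68 and 10.75 on the log2 scale on the arrays labelled Alox15-/-, against 4.63 and 4.35 on the WT arrays, which lie below the highest of 27 bacterial control probe sets (4.95 to 5.17 over the 4 arrays). The difference between the values as read was 6.22 (limma adjusted p = 0.00133, n = 2 each). With the WT arrays set at their highest bacterial control, Alox15 was at least 53.5-fold higher on the arrays labelled Alox15-/-, a bound that was not tested. Neither the deleted exons nor the place of the probes in the gene is known here, and a probe set outside the deletion would not check the labels. Every direction below is that of the arrays as labelled.

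Polycomb proteins keep developmental genes silent. PRC2 places a repressive methyl mark on histone H3 through its catalytic subunits Ezh1 and Ezh2, and PRC1 binds marked chromatin through Cbx proteins and attaches ubiquitin to histone H2A through Ring1 and Rnf2. DNA methyltransferases add methyl groups to cytosines and Tet enzymes oxidise them. In blood stem cells Bmi1 and Ezh1 are known for maintaining self-renewal, and Dnmt3a and Tet2 for restraining the expansion of stem cell clones.

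The promoter windows of 5 members are shown because they carry the contrasts described below. Pcgf6 and Phc1 had the largest differences above and below 0 between the groups, and Dnmt1, Ezh2 and Suz12 were the 3 members with a match to the E2F binding word. E2F factors drive genes of DNA replication. The windows are from RefSeq on build GRCm38.p6, run 5′ to 3′ on the gene's strand from 250 bases before to 50 bases after an annotated start, and capitals mark the match. The words searched, on both strands, were TTTCCCGC, TTTCGCGC, TTTGCCGC and TTTGGCGC.
Pcgf6, chr19:47050857-47051156, minus strand: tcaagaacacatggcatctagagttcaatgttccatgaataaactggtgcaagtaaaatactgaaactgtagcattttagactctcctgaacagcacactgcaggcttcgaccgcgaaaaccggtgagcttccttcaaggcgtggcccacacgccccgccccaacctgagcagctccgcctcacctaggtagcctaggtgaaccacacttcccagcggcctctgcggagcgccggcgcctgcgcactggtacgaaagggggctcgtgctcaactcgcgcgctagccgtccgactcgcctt
Phc1, chr6:122340178-122340477, minus strand: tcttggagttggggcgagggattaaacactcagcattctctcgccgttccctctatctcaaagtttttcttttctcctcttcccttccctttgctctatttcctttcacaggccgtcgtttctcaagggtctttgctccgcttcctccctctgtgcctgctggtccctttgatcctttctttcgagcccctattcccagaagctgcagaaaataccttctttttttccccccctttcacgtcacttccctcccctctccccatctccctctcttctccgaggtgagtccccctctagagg
Dnmt1, chr9:20952574-20952873, minus strand: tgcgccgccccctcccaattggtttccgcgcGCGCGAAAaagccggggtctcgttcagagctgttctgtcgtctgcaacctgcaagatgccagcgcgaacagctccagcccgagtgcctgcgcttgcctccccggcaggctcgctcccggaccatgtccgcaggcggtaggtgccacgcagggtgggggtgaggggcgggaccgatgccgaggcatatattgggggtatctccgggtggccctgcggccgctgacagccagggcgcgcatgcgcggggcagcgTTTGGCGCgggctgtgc
Ezh2, chr6:47594981-47595280, minus strand: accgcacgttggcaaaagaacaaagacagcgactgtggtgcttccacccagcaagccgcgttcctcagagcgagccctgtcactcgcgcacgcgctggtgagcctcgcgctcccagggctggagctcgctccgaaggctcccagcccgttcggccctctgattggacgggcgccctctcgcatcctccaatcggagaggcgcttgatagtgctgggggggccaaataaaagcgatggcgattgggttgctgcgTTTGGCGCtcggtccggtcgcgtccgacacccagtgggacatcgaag
Suz12, chr11:79992856-79993155, plus strand: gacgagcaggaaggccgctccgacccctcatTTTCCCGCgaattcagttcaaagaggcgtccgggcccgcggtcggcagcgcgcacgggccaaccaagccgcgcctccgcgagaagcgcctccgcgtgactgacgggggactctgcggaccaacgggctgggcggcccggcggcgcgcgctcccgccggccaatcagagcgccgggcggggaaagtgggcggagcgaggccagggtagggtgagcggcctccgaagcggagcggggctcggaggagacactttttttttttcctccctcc

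Dnmt1 has 3 annotated windows, of which only 1 held a match, and that one is shown because it held the most. Its 2 matches lie at bases 32 to 39 on the opposite strand and 284 to 291 as printed. Ezh2 matched at bases 254 to 261 and Suz12 at bases 32 to 39, each once. Windows were found for 35 of the 40 members, 50 windows in all, of which 3 (6%) held a match, against 2.26% of 32851 windows of all genes. Members' promoters were rich in CpG: the ratio of observed to expected CpG had a median of 0.82 over the members' windows, against 0.38 over all windows. Of the members' windows 41 (82%) had a ratio of at least 0.6, against 35.8% of all. Among CpG-rich windows alone the E2F words stood in 3 of 41 (7.32%), against 5.02% of 11765 windows of all genes. A match is a run of letters and was not tested as a binding site.

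None of the members passed the test across all genes. Of the 40 members, 0 passed limma's Benjamini-Hochberg adjusted threshold of 0.05, with adjusted p from 0.611 to 0.998, against 1 of 18194 genes (0.0055%), which was Alox15. At an unadjusted p under 0.05 there was 1 member of 40 (2.5%), Pcgf6, against 7.77% of all genes. It was higher in the arrays labelled Alox15-/-, where 4.2% of all genes were called, and 0 members were lower, against 3.57% of all genes. The values of the 2 groups did not overlap for 16 members (40%), against 38.5% of all genes, 7 of them higher in the arrays labelled Alox15-/- (21.4% of all genes) and 9 lower (17.1%). The share with a low p was thus below that of all genes, and the share without overlap was near it.

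Differences between the groups were small over the members. The median absolute log2 difference was 0.11 over the 40 members and 0.14 over all genes. Only Pcgf6 exceeded 0.5, that is 1 of 40 (2.5%), against 6.09% of all genes. On each of the 4 arrays all 40 members lay above the highest bacterial control, and over the 13009 genes that did so the median absolute difference was also 0.14 and the share above 0.5 was 6.16%. The spread between arrays of one group was 0.10 for the median member, against 0.14 for the median gene of those 13009. Differences under 0.1 were found for 19 members and under 0.2 for 32. The 95% intervals of the differences reached 0.32 to 0.63 on each side of the estimate. They lay within -0.5 and 0.5 for 25 members and within -1 and 1 for 39, the exception being Pcgf6.

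**Figure D1:**
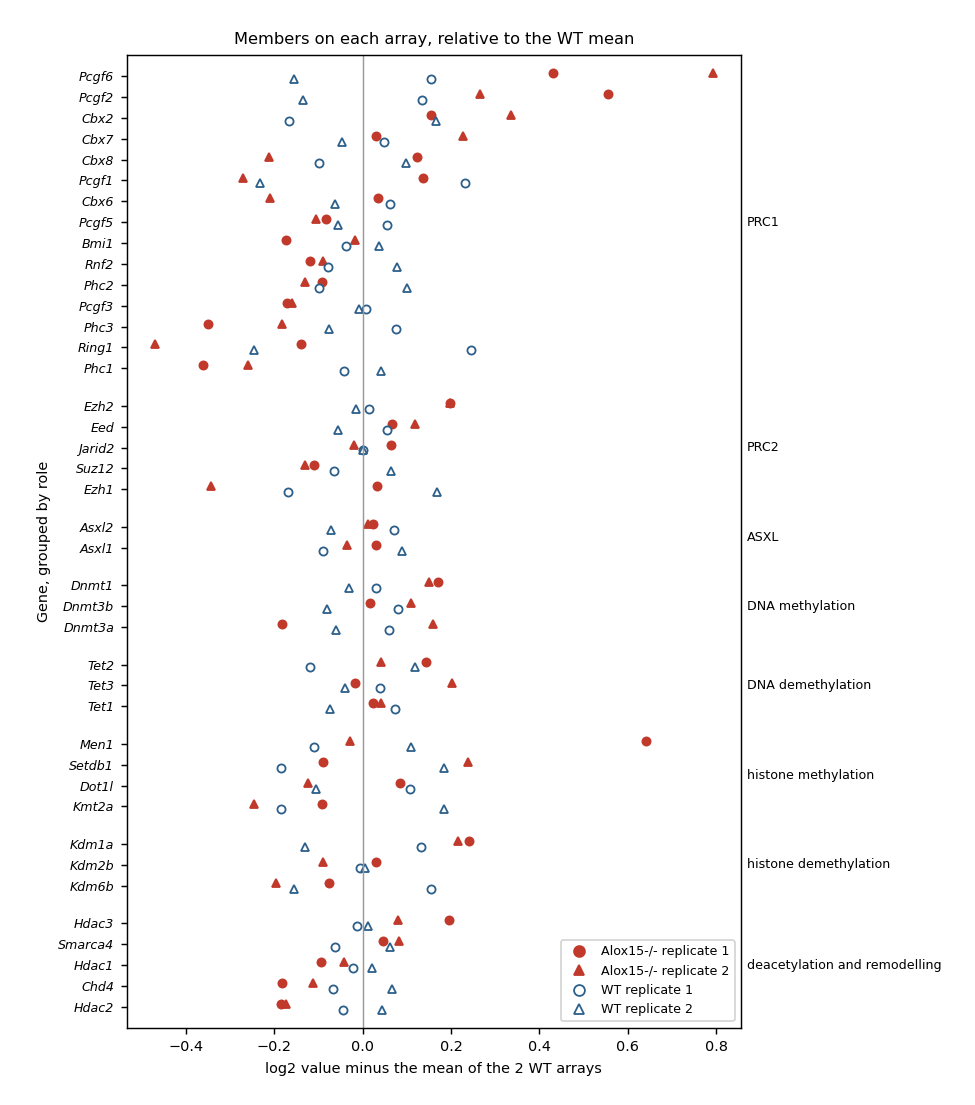
Each gene's log2 value on every array minus the mean of the 2 WT arrays, with filled red symbols for the arrays labelled Alox15-/- and open blue symbols for WT, circles for replicate 1, triangles for replicate 2, and genes grouped by role. Most red and blue symbols interleave. Pcgf6 stands furthest to the right, and its 2 red symbols lie clear of the blue ones.

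PRC1 held the largest differences of the set. PRC1 forms around Ring1 or Rnf2, the ubiquitin ligases, and a Pcgf partner that defines the variant. Pcgf6 marks the variant that silences germline genes, and it read 8.44 and 8.80 on the arrays labelled Alox15-/-, against 8.16 and 7.85 on the WT arrays. Both Alox15-/- arrays were above both WT arrays, and the difference of 0.61 ± 0.19 (SE, n = 2 each), a 1.53-fold ratio, had limma adjusted p = 0.611 and an unadjusted p of 0.0223. A second Pcgf6 probe set read 6.84 and 6.71, against 6.11 and 6.46 in WT, a difference of 0.49, again without overlap. The dimmest of the 3 probe sets gave -0.13 with groups that overlapped.

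Pcgf2 (Mel18), the closest paralog of Bmi1, read 7.57 and 7.28 on the arrays labelled Alox15-/-, against 7.15 and 6.88 in WT. Again without overlap, the difference was 0.41 ± 0.17 (SE, limma adjusted p = 0.662). Its other probe set gave -0.26, so its 2 probe sets disagreed in sign. Bmi1 itself, the Pcgf member best known from stem cell self-renewal, read 9.04 and 9.19 on the arrays labelled Alox15-/- and 9.17 and 9.25 in WT. The groups overlapped, the difference was -0.10 with a 95% interval from -0.44 to 0.25, and a second probe set gave -0.03.

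The remaining Pcgf genes had small differences. Pcgf1, of the variant complex with Kdm2b and Bcor, had -0.07 and overlapping groups. Pcgf3 read 8.41 and 8.42 on the arrays labelled Alox15-/- and 8.58 and 8.57 in WT. These groups did not overlap, the difference was -0.16, and its other probe sets gave -0.12 and -0.40. Pcgf5, which with Pcgf3 forms variant complexes that act in X inactivation, had -0.09 at the probe set used and -0.23 and -0.86 at its other probe sets, all 3 without overlap. The last of these read 8.77 and 9.10 on the arrays labelled Alox15-/-, against 9.52 and 10.06 in WT. The 3 probe sets thus share a sign and differ widely in size.

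The polyhomeotic genes, whose proteins polymerise and cluster Polycomb complexes, were all on the lower side at the probe sets used. Phc1 read 9.24 and 9.34 on the arrays labelled Alox15-/-, against 9.56 and 9.64 in WT. Both were below both WT arrays, and the difference was -0.31 ± 0.13 (SE, limma adjusted p = 0.662), with an interval from -0.64 to 0.02. Phc3 read 9.74 and 9.90 on the arrays labelled Alox15-/- and 10.16 and 10.01 in WT, also without overlap. Its difference was -0.27 ± 0.14, and a second probe set, not above the bacterial control on 1 array, gave -0.53 with overlapping groups. Phc2 had -0.11 and 0.10 at its 2 probe sets.

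Of the ligases, Ring1 read 9.39 and 9.06 on the arrays labelled Alox15-/- and 9.78 and 9.29 in WT. Its difference of -0.30 was among the larger ones, but the groups overlapped and the 95% interval ran from -0.86 to 0.25. It rests on WT replicate 1, without which it was -0.06. Rnf2 had -0.10 without overlap, and 4 of its 5 probe sets were below 0. Among the Cbx genes, whose chromodomains read the PRC2 mark, Cbx2 had 0.25 and a second probe set of opposite sign at -0.32. Cbx7, which in mouse blood stem cells favours self-renewal, had 0.13, with 0.02 and -0.17 at its other probe sets. Cbx8 had -0.04 and Cbx6 -0.09, both with overlapping groups.

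Over all 15 PRC1 genes, 4 were higher and 11 lower on the arrays labelled Alox15-/-, and the median was -0.09, against 53.8% of all genes higher and a median of 0.02. None passed limma's adjusted threshold (0 of 15), and 1 (6.67%) had an unadjusted p under 0.05, against 7.77% of all genes. The groups did not overlap for 7 of the 15, or 46.7%, against 38.5% of all genes. The mean deviation of the 15 genes from their own means was 0.01 and -0.02 on the arrays labelled Alox15-/- and 0.04 and -0.02 on the WT arrays. The complex as a whole thus overlapped between the groups.

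**Figure D2:**
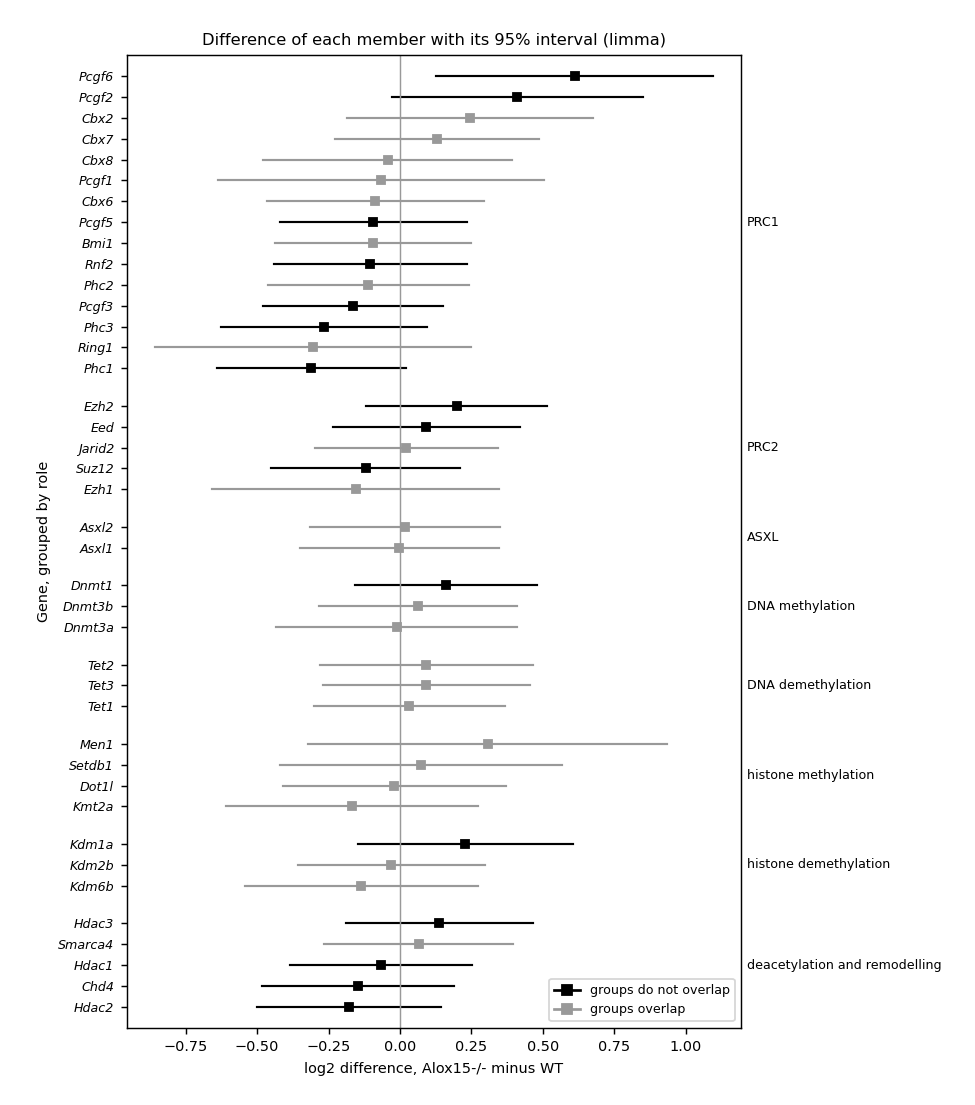
Log2 difference of each member, Alox15-/- minus WT, with its 95% interval from limma, in black where the groups of arrays do not overlap and grey where they do. Only the interval of Pcgf6 lies on one side of 0, with its lower end at 0.13.

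PRC2 was close to even between the groups. Ezh2, the catalytic subunit of dividing cells, read 11.11 on both arrays labelled Alox15-/-, against 10.93 and 10.90 in WT. No overlap was seen, and the difference was 0.20 ± 0.13 (SE, limma adjusted p = 0.744), a 1.15-fold ratio, at its only probe set. Ezh1, the subunit of resting cells, had -0.15 with overlapping groups and 2 probe sets of each sign, of which the lowest (-0.38) was not above the bacterial control on any array. Its interval ran from -0.66 to 0.35.

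Of the core scaffold genes, Eed, which binds the mark PRC2 lays down, read 11.43 and 11.48 on the arrays labelled Alox15-/- and 11.42 and 11.31 in WT. That difference of 0.09 came without overlap, but a second probe set, dimmer than the bacterial control, gave -0.22. Suz12, whose window is shown above, had -0.12 without overlap and from -0.12 to 0.39 over its 6 probe sets, 3 of each sign. The highest came from its dimmest probe set, not above the bacterial control on WT replicate 1. Jarid2, which recruits PRC2 and is known in mice to limit stem cell activity in committed progenitors, had 0.02. Over the 5 PRC2 genes the median was 0.02, the same as over all genes to 2 decimals, with 3 higher and 2 lower and 0 past the adjusted threshold.

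Asxl1 and Asxl2 encode partners of the Bap1 enzyme that removes ubiquitin from H2A. Asxl1 read 10.94 and 10.87 on the arrays labelled Alox15-/- and 10.82 and 10.99 in WT, a difference of 0.00 to 2 decimals. Its other 2 probe sets gave 0.21 and 0.30, both without overlap. Asxl2 had 0.02 at the probe set used, reading 9.86 and 9.85, against 9.91 and 9.77 in WT, and all 5 of its probe sets were above 0, up to 0.30. For both genes the dimmer probe sets thus gave mostly larger differences than the one used.

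Dnmt1 copies methylation onto new DNA strands during replication. It read 12.32 and 12.30 on the arrays labelled Alox15-/-, against 12.18 and 12.12 in WT. Both were above both WT arrays, and the difference was 0.16 ± 0.13 (SE, limma adjusted p = 0.794). The other 2 Dnmt1 probe sets gave 0.34, from 11.15 and 11.18 against 10.86 and 10.79 in WT, and 0.20, from 10.26 and 10.10 against 10.01 and 9.95. All 3 were without overlap, and 2 of them, by Affymetrix's naming, hold probes that may also bind other transcripts. By the same naming, the probe sets used for Cbx6, Cbx7, Suz12, Jarid2, Kdm1a, Kdm6b and Hdac3 may do so too.

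Of the de novo enzymes, Dnmt3a, whose loss in mice expands stem cells, had -0.01 at the probe set used, reading 10.68 and 11.02 on the arrays labelled Alox15-/- and 10.92 and 10.80 in WT. All 5 Dnmt3a probe sets were below 0, 4 of them without overlap, down to -0.21 at a probe set that read 9.61 and 9.58 against 9.82 and 9.79. Dnmt3b had 0.06 and 0.19 at its 2 probe sets, both with overlapping groups. The median over the 3 genes was 0.06.

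The Tet enzymes were the only role group with all its genes on one side, and by little. Tet2, often mutated in human blood clones, read 9.20 and 9.10 on the arrays labelled Alox15-/- and 8.94 and 9.17 in WT, a difference of 0.09. Its second probe set gave -0.40, also with overlapping groups. Tet3 had 0.09, reading 7.54 and 7.76 against 7.60 and 7.52 in WT, and Tet1 had 0.03 with probe sets from -0.07 to 0.12. The groups overlapped for all 3 at the probe sets used.

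Of the histone methylation genes, Men1, which encodes the menin scaffold that tethers Kmt2a, read 8.57 and 7.91 on the arrays labelled Alox15-/- and 7.82 and 8.04 in WT. The groups overlapped, and the difference of 0.31 rests on Alox15-/- replicate 1, since without that array it was -0.03. The other 2 Men1 probe sets gave 0.20 each. Kmt2a (MLL1), which activates Hox genes, had -0.17 with overlapping groups and -0.25 without overlap at its second probe set. Setdb1, which silences endogenous retroviruses, had 0.07, and its other probe sets gave 0.34 and -0.48, each without overlap but of opposite sign. Dot1l, a methyltransferase of the histone core, had -0.02. The median of the 4 was 0.03.

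**Figure D3:**
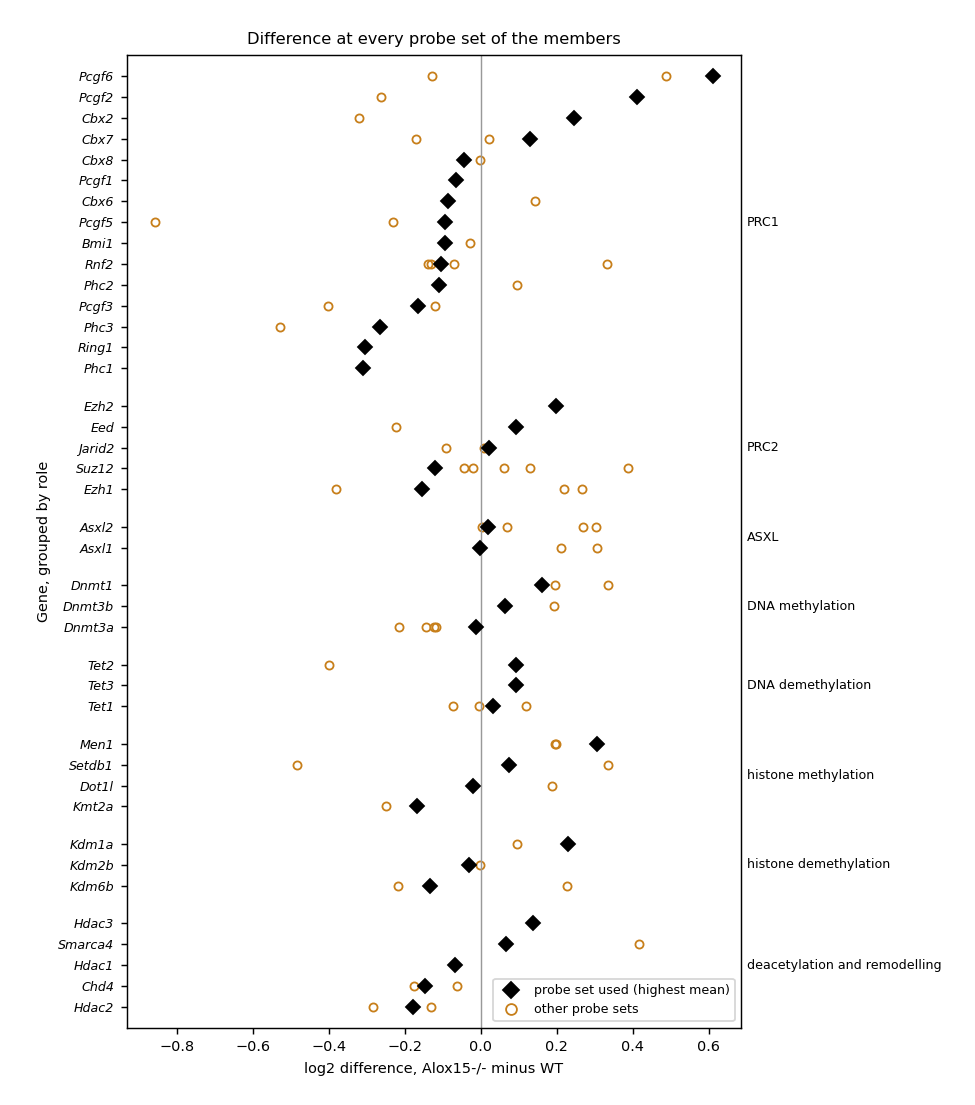
Log2 difference, Alox15-/- minus WT, at all 102 probe sets of the 40 members, with black diamonds for the probe set used and open circles for the others. Of 33 members with several probe sets, 17 had probe sets on both sides of 0, and Pcgf5 reached -0.86 at one of its circles.

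Of the demethylase genes, Kdm1a (LSD1), which acts in repressor complexes of blood cell differentiation, read 11.11 and 11.09 on the arrays labelled Alox15-/-, against 11.00 and 10.74 in WT. Without overlap, the difference was 0.23 ± 0.15 (SE, limma adjusted p = 0.749), and its second probe set gave 0.10, also without overlap. Its size turns on the WT arrays, at 0.36 without WT replicate 1 and 0.098 without WT replicate 2. Kdm2b, which brings PRC1 to CpG islands, had -0.03 and 0.00 at its 2 probe sets. Kdm6b, which removes the PRC2 mark, had -0.13 with overlapping groups and probe sets from -0.22 to 0.23.

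Of the deacetylase and remodelling genes, Hdac2, a class I deacetylase, read 12.03 and 12.04 on the arrays labelled Alox15-/-, against 12.17 and 12.26 in WT. Both were below both WT arrays, the difference was -0.18 ± 0.13 (SE, limma adjusted p = 0.770), and its other probe sets gave -0.13 and -0.28, both without overlap. Chd4, the motor of the NuRD complex in which Hdac1 and Hdac2 also sit, had -0.15, reading 11.33 and 11.40 against 11.44 and 11.57 in WT. Its other probe sets gave -0.06 and -0.17, again without overlap.

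Hdac1, at its only probe set, had -0.07, also without overlap. Hdac3, the enzyme of the NCoR corepressor, read 9.14 and 9.03 on the arrays labelled Alox15-/- and 8.94 and 8.96 in WT, a difference of 0.14 without overlap. Smarca4 (Brg1), the motor of the SWI/SNF remodeller, had 0.07 with overlapping groups, and 0.42 at a second probe set that read 9.02 and 9.06 against 8.57 and 8.68. In this group 4 of 5 genes were without overlap, where 38.5% of all genes were, and the median difference was -0.07.

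Across the 40 members, 33 had more than 1 probe set. For 16 of the 33 all probe sets had one sign, 6 higher and 10 lower on the arrays labelled Alox15-/-, and for 17 they disagreed. Dnmt1 was without overlap at each of 3 probe sets on the higher side, Kdm1a at both of its own, and Pcgf5, Hdac2 and Chd4 at each of 3 on the lower side. Probe sets of a gene share the same RNA samples and are not replicates.

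The lists of chromatin genes outside the members gave a like picture. Of 130 such genes measured, 67 were higher and 63 lower, the median difference was 0.00, and 0 passed limma's adjusted threshold, with 8 at an unadjusted p under 0.05 (6.15%, against 7.77% of all genes). The groups did not overlap for 56 (43.1%), against 38.5% of all genes. Among other Polycomb genes, Scml2, a germline PRC1 partner, had -1.05 and Auts2, a partner of Pcgf3 and Pcgf5 complexes, -0.97. Their limma adjusted p were 0.575 and 0.611, and each had other probe sets up to 0.20 and 0.19.

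Among other DNA methylation genes, Hells, a helicase that aids maintenance methylation, read 8.90 and 9.01 on the arrays labelled Alox15-/-, against 8.49 and 8.43 in WT, a difference of 0.49 (limma adjusted p = 0.575), with -0.08 at the lowest of its probe sets. Gadd45a, a damage response gene tied to demethylation, had -0.40. Of the remaining lists, Kmt2c and Mllt3, a fusion partner of Kmt2a in leukaemia, both had -0.44, and their other probe sets were also below 0. Kdm5b had -0.49 (-0.73 to 1.12 over its probe sets) and Phf8 -0.40. Smarca2, the alternative motor to Smarca4, had -0.41 and Chd3 0.38. Kat8 had -0.34 and Kat2a 0.26. None of these genes passed the threshold.

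Genes known to be held silent by Polycomb were tested for their levels too. Of 20, 10 were higher and 10 lower, with a median difference of 0.00 and 0 past limma's adjusted threshold. At an unadjusted limma p under 0.05 there were 2 (10%), against 7.77% of all genes. The groups did not overlap for 7 of the 20 (35%), against 38.5% of all genes. On every array 9 of the 20 read brighter than each bacterial control, such as Cdkn2c with 8.38 and 8.17, against 8.37 and 8.20 in WT. Others of the 9 lay close to the highest bacterial control, such as Isl1 with 5.28 and 5.34, against 5.17 and 5.47 in WT. A value above that control does not by itself show that a gene is active. Cdkn2a, the classic target whose release halts Bmi1-deficient mouse stem cells, read 4.49 and 4.57 on the arrays labelled Alox15-/- and 4.17 and 4.40 in WT. These values lay below the highest bacterial control on every array, as did Cdkn2b, Foxa1, Lhx1, Olig2 and Wt1. Cdkn1a, a p53 target, read 9.27 and 8.97, against 8.34 and 7.82 in WT, a difference of 1.04 (adjusted p = 0.503) with 0.33 at its other probe set. Ebf1 had -0.42 (adjusted p = 0.633), with probe sets up to 0.46.

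Cell cycle genes lay mostly on one side. Of 16 S phase genes all 16 were higher on the arrays labelled Alox15-/- at the probe set used, with a median of 0.20. Of 15 G2/M genes 14 were higher, with a median of 0.30. In either list 0 genes passed limma's adjusted threshold. At an unadjusted limma p under 0.05 there were 3 S phase genes (18.8%) and 6 G2/M genes (40%), against 7.77% of all genes. Other probe sets were lower for Pola1 (-0.46), Tyms (-0.285), Slbp (-0.08) and Top2a (-0.19). Mcm2, of the replicative helicase, had 0.52 and Rrm2, of nucleotide supply, 0.48. Aurkb, a mitotic kinase, had 0.55, and Mki67, the proliferation marker, was the G2/M gene on the other side with -0.63. The S phase genes summed to 173.0 and 173.4 on the arrays labelled Alox15-/- and to 170.7 and 168.8 in WT, in log2 units. Of the 3 members with an E2F match, Ezh2 and Dnmt1 lay on the higher side with 0.20 and 0.16, and Suz12 on the lower side with -0.12. Of all 40 members 18 were higher and 22 lower. The 3′ minus 5′ signal of Gapdh, a sign of RNA quality, was 2.14 and 2.17 on the arrays labelled Alox15-/- and 2.37 and 2.39 in WT, without overlap, while that of Actb overlapped. The part of cell cycle and of RNA quality in the members' values was not tested.

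Of 13 granulocyte-monocyte markers 12 were higher, with a median of 0.86 and 0 past limma's adjusted threshold. At an unadjusted limma p under 0.05 there were 8 (61.5%), against 7.77% of all genes. The largest were S100a8 with 1.64 and S100a9 with 1.46, and Itgam was the lower one with -0.51. S100a8 read 9.14 and 8.92 on the arrays labelled Alox15-/-, against 6.56 and 8.23 in WT. S100a9 read 10.38 and 9.98, against 8.16 and 9.28 in WT. In both, WT replicate 1 lay far below WT replicate 2, so the size turns on the WT arrays. The 13 markers summed to 110.3 and 110.5 on the arrays labelled Alox15-/- and to 96.5 and 102.3 in WT. All 13 lay above the highest bacterial control. Of 6 T and NK cell markers 5 were higher, and all 6 were without overlap, where 38.5% of all genes were. Of 5 B cell markers 4 were higher, of 5 mast cell and basophil markers 4, with a median of 0.65, and of 5 erythroid markers 2, with a median of -0.21, and 0 genes of these lists passed limma's adjusted threshold. Chosen after their values were seen, Vpreb1 had 1.03, Nkg7 0.51, Cd8a 0.54, Klf1 0.87 and Cpa3 0.84, each above the bacterial control on all arrays and without overlap. Ms4a1, Cd3e, Cd3g, Hba-a1 and Fcer1a lay below that control on all arrays. Cd8a ran from -0.12 to 0.54 over its 5 probe sets. The markers on the lower side in these lists were Pax5 (-0.12), Cd4 (-0.18), Epor (-0.215), Ermap (-0.28), Tfrc (-0.24) and Gzmb (-0.14). Other probe sets reached 0.05 for Pax5, 0.465 for Cd4 and 0.31 for Tfrc, while Epor, Ermap and Gzmb had 1 each. The summed levels were 34.6 and 35.2 on the arrays labelled Alox15-/- and 33.6 and 33.7 in WT for the T and NK cell markers, in log2 units. For the B cell markers they were 32.7 and 32.7 on the arrays labelled Alox15-/- and 31.2 and 31.8 in WT. They overlapped between the groups for the erythroid markers and for the mast cell and basophil markers. Kit, the one measured gene of the sort's positive markers, read 10.34 and 10.23 on the arrays labelled Alox15-/- and 10.63 and 10.48 in WT. Cd34, Flt3, Procr and Slamf1, other genes of stem and progenitor cells, lay above the bacterial control on all arrays, with differences from -0.25 to 0.32. Slamf1 ran from -0.25 to 0.73 over its 3 probe sets. The part of cell makeup in the members' values was not tested.

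**Figure D4:**
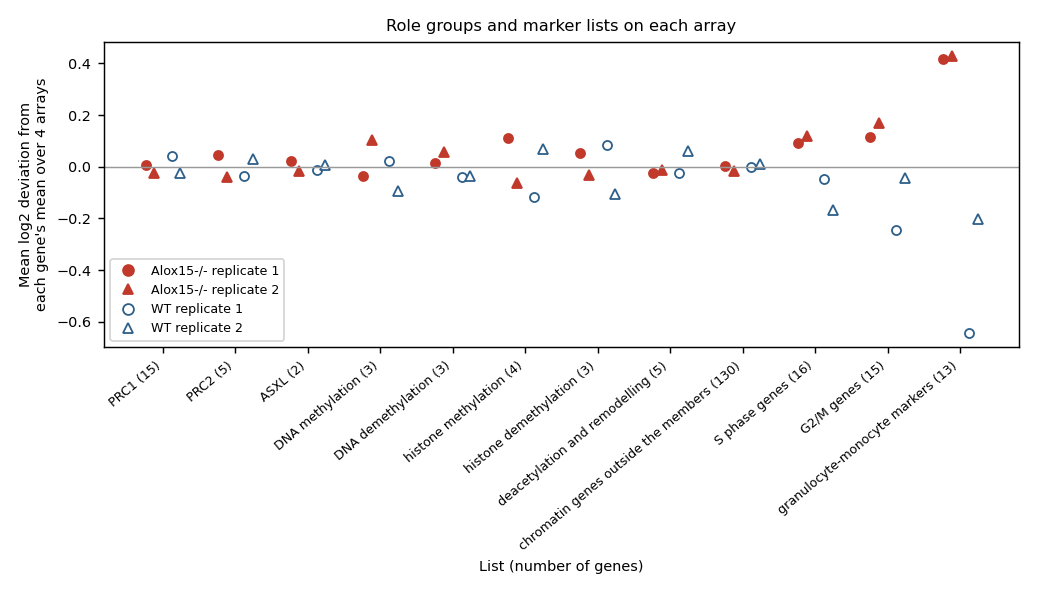
Mean log2 deviation of each list's genes from their own means over the 4 arrays, with filled red symbols for the 2 arrays labelled Alox15-/- left of open blue symbols for the 2 WT arrays, and circles and triangles for replicates 1 and 2. Role groups of the members stay within 0.12 of 0, whereas granulocyte-monocyte markers reach -0.64 on WT replicate 1.

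Medians of the role groups ran from -0.09 for PRC1 to 0.09 for the Tet genes. They depend on the probe set: at the one with the largest variance, the median was 0.29 for the Asxl genes, 0.23 for histone demethylation, 0.19 for DNA methylation and 0.00 for the Tet genes. In the plot of deviations by array the 2 groups of arrays overlapped for each role group except the Tet genes, at 0.01 and 0.06 on the arrays labelled Alox15-/- and -0.04 and -0.03 in WT. Histone methylation genes stood at -0.12 on WT replicate 1 and 0.07 on WT replicate 2, and histone demethylation genes at 0.08 and -0.10. No difference between role groups was tested.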

How the data were processed

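RNA of sorted bone marrow cells was measured on 4 arrays, 2 labelled Alox15-/- and 2 labelled WT, grouped by title. The deposited values are log2 intensities per probe set; the authors used RMA in Affymetrix Expression Console 1.1, per the submitters' processing notes. RMA corrects background, makes the arrays' distributions equal and combines probes into 1 value. Per the labels' protocols, the kit made sense-strand targets, but probe set names are those of an array for antisense targets, and the sources do not settle this.

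Of 45101 probe sets, 34958 had 1 symbol in the platform annotation, 932 several and 9211 none; gene IDs of 34754 matched RefSeq (GRCm38.p6). Keeping each gene's brightest probe set on average left 18194 genes. The fit was limma 3.58.1 in R 4.3.3 (lmFit, eBayes, two-sided, no block), Alox15-/- minus WT, adjusted over all genes at a threshold of 0.05, with moderated standard errors and 95% intervals. With 2 arrays a group, the number of arrays limits the precision. The code was tested on simulated data. Python 3.11.15 and matplotlib 3.10.9 drew the figures.

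The members and lists were chosen with earlier results of these data known. All members are named; values on every array are given for members without overlap and an absolute difference of at least 0.2, and for the largest of each role group. Others outside this rule were chosen after their values were seen, to show disagreement or agreement among probe sets. Wider lists give the 2 genes with the largest difference without overlap. Listed genes without a single-symbol probe set were not analysed here. Replicate numbers come from the titles, which state no pairing. Across 18194 genes the replicate differences of the 2 groups correlated at r = -0.02. That value shows no shift shared across genes, but it cannot exclude a pairing. Alternatives changed the scaling of arrays, the low-value filter, the variance prior and the probe set per gene, used a replicate block, or left out each array in turn.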

Additional observations from a re-analysis of the deposited data

How the results depend on the processing

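Under 14 alternatives, 0 of 40 members passed limma's adjusted threshold, with a lowest adjusted p of 0.412, and 0 of the chromatin genes outside the members did. Members with an unadjusted p under 0.05 numbered 0 to 4. Over all genes the count past the threshold was 22 with a mean-dependent prior variance, 0 without variance moderation, 3 at the probe set with the largest variance and 0 without any 1 array, where the lone array is assumed to vary like the other group. Alox15 itself then had limma adjusted p from 0.172 to 0.328. With the replicate block the count was 1, as without it, and the block changed no other call at the adjusted threshold. Members without overlap numbered 23 to 34 without 1 array, since fewer arrays overlap less. The median over the 40 members ran from -0.032 to 0.027 without 1 array. Medians of role groups moved too: with the mean over probe sets to -0.037 for PRC1, 0.15 for the Asxl genes and 0.019 for the Tet genes. Without 1 array PRC1 ran to -0.13. Among members that kept their sign, Ring1 ran from -0.55 to -0.06, Kdm1a from 0.098 to 0.36, Pcgf2 from 0.27 to 0.56 and Pcgf6 from 0.43 to 0.79 without 1 array. The number of arrays limits the precision, and each member lay above the bacterial controls at its brightest probe set.

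Of the members, 18 kept their sign in every alternative, Pcgf6, Pcgf2, Phc1, Phc3, Ezh2, Dnmt1, Kdm1a, Hdac2 and Chd4 among them, and 22 did not. The variance settings, the replicate block and the low-value filters leave a difference unchanged, so no sign could change there. For members with 1 probe set, such as Phc1 and Ezh2, the choice of probe set could change none either. Pcgf2 fell to 0.074 with the mean over its probe sets. With the mean over a gene's probe sets the difference was -0.037 for Cbx2, 0.028 for Cbx6, -0.0067 for Cbx7, 0.065 for Suz12, -0.065 for Eed, -0.02 for Jarid2, 0.17 for Asxl1, -0.15 for Tet2, 0.083 for Dot1l and -0.025 for Setdb1. At the probe set with the largest variance it was 0.14 for Cbx6, -0.17 for Cbx7, 0.39 for Suz12, -0.22 for Eed, 0.30 for Asxl1, -0.0037 for Tet1, -0.40 for Tet2, 0.19 for Dot1l, -0.48 for Setdb1 and 0.23 for Kdm6b. These settings read other probe sets. The one read for Eed lay below the highest bacterial control on every array, and the one for Suz12 on 1 array. Without 1 array Eed ran from 0.0375 to 0.1475 and Suz12 from -0.18 to -0.056, each on one side of 0. Without 1 array the ranges that crossed 0 were -0.091 to 0.086 for Asxl1, -0.052 to 0.089 for Asxl2, -0.21 to 0.036 for Cbx6, -0.21 to 0.12 for Cbx8, -0.18 to 0.16 for Dnmt3a, -0.018 to 0.14 for Dnmt3b, -0.13 to 0.086 for Dot1l, -0.34 to 0.034 for Ezh1, -0.02 to 0.065 for Jarid2, -0.09 to 0.03 for Kdm2b, -0.29 to 0.02 for Kdm6b, -0.35 to 0.015 for Kmt2a, -0.028 to 0.64 for Men1, -0.30 to 0.17 for Pcgf1, -0.11 to 0.26 for Setdb1, -0.04 to 0.10 for Tet1, -0.026 to 0.21 for Tet2 and -0.016 to 0.20 for Tet3; the cause was not tested.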
